A study of Mus musculus with 7 samples.

Results

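Meiosis, recombination and DNA repair genes were followed as a group of 80 genes among the 3997 distinct coding genes in a table comparing the testis RNA of *Ctcf*-cKO males with that of wild-type males. A gene was taken into the group when a Gene Ontology biological process term given to its row in the table contained meio, synapsis, synaptonemal, DNA repair, DNA recombination or double-strand break. Each of the 80 genes had 1 row, named by the symbol that stands first in it. The table lists only transcripts past the authors' thresholds, a linear fold of 2 and a p of 0.05, so a gene of meiosis or repair without a row has no value here, and the counts below describe the listed members only.

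The study asked what the DNA-binding protein CTCF does in male germ cells, and RNA of 3 wild-type and 4 *Ctcf*-cKO adult mice was measured with 1 mouse transcriptome array per mouse. *Ctcf*-cKO males carried 1 floxed and 1 deleted *Ctcf* allele together with Stra8-iCre, whose promoter is active in spermatogonia and pre-leptotene spermatocytes. Wild-type littermates in the study were of *Ctcf* genotype f/f, wt/f or wt/wt, and which of these the arrayed males had is not given. The tunica albuginea had been removed before RNA was prepared from the seminiferous tubules, whereas the sample titles name testes. The deposited table gives, per genotype, a bi-weight average that the authors formed from log2 signals, and no value of a single mouse, so whether the mice of both groups overlapped could not be seen, and every value below is an authors' average without an error. Differences are *Ctcf*-cKO minus wild-type on the log2 scale, so that -1 is a signal lower by a linear fold of 2. *Ctcf* itself had no row, and the array values therefore gave no check of the deletion. The paper checked it by protein: CTCF was reduced in immunoblots of *Ctcf*-cKO testis, and staining of sections did not show it in spermatocytes and spermatids.

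In meiotic prophase, programmed breaks made along the chromosome axes are repaired by exchange with the homologous chromosome while the synaptonemal complex joins the paired axes. Part of the breaks become crossovers, which hold the homologs together until they are separated in the first meiotic division. In the testis these steps take place in primary spermatocytes, and several of the proteins involved are made in few other cells, whereas most repair enzymes also act in somatic cells.

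Of the 80 members, 70 had a lower average in *Ctcf*-cKO (87.5%), while 61.3% of all coding genes listed were lower. The 10 other members were higher, against 38.7% of all coding genes listed. The median difference of the members was -1.19, and that of all coding genes listed was -1.12. The table has no values between -1 and 1, so these medians depend on the share of lower genes, and among lower genes alone the median was -1.21 for the members and -1.29 for all coding genes listed. In bulk samples such as these, fewer cells of a type and less RNA per cell cannot be told apart. The quartiles of the lower members were -1.37 and -1.11, and those of all lower coding genes listed were -1.45 and -1.16. Subtraction of the median of all rows in the table, which was -1.15, left 48 members lower and 32 higher (60.0% lower), and 46.9% of all coding genes listed were then lower. The rows are there because of their fold, so this median is not that of the whole array.

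Markers of the other cells of the testis differed between the genotypes together with the members. Of 12 markers of round spermatids, 11 had a row and all 11 were lower, with a summed linear signal of 16100 in wild-type against 6560 in *Ctcf*-cKO. The direction of *H1fnt*, *Hook1* and *Spata16* was known when this list was made, so the count is partly fixed by the choice of markers. *Tssk2* had the highest signal of them in wild-type, *Hook1* and *Tssk2* stood at 10 and 9.98 in *Ctcf*-cKO, and *Izumo1* had no row. Signals of different probes do not compare amounts between genes, so the sums and leading genes given here describe signal only. Of 10 markers of elongating spermatids, *Prm3* and *Akap4* had a row and both were lower, with a sum of 3400 in wild-type against 1670 in *Ctcf*-cKO, led by *Akap4*, while *Prm1*, *Prm2*, *Tnp1* and *Tnp2* were among the 8 without a row. The somatic lists went the other way. All 9 of the 12 Sertoli cell markers with a row were higher, with sums of 4990 and 14700 led by *Clu*, and *Amh*, *Rhox5* and *Gata1* had no row. All 8 of the 10 Leydig cell markers with a row were higher, with sums of 7980 and 29700 led by *Cyp17a1*, and *Insl3* and *Scarb1* had no row. For peritubular myoid cells, 3 of 5 markers had a row and were higher, from a sum of 1210 to one of 3000, led by *Acta2*, with *Cnn1* and *Des* lacking a row. Of 7 macrophage markers, 4 had a row and were higher, from a sum of 712 to one of 2280, led by *Mrc1* in wild-type and *Lyz2* in *Ctcf*-cKO, and *Adgre1*, *Cd163* and *C1qa* had no row. Of 5 endothelial markers, *Cdh5* and *Kdr* were higher, from a sum of 208 to one of 454 led by *Cdh5*, and *Pecam1*, *Tek* and *Vwf* had no row. Among 10 markers of spermatogonia the one with a row was *Kit*, which averaged 7.81 in wild-type against 10.09 in *Ctcf*-cKO, and *Zbtb16*, *Gfra1* and *Sall4* were among the 9 without a row. The part of these cell types in the values of the members was not tested.

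**Figure D1:**
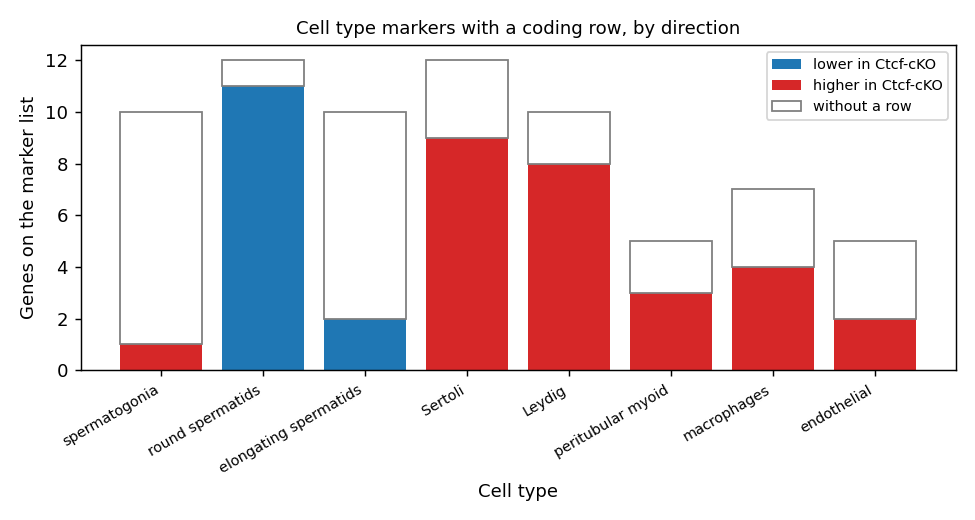
Number of genes on each list of cell type markers (vertical axis) whose authors' average was lower or higher in *Ctcf*-cKO, with genes without a row in white. All 11 round spermatid markers with a row were lower, and all 9 Sertoli and 8 Leydig cell markers with a row were higher.

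The synaptonemal complex and the chromosome axis were represented by 5 of 12 listed genes, and all 5 were members and lower. Such counts, here and for the lists below, stand beside 61.3% lower of all coding genes listed and 87.5% of the members. *Sycp1*, which encodes the transverse filament protein that bridges the paired axes, averaged 10.30 in wild-type against 9.16 in *Ctcf*-cKO, a difference of -1.14. *Sycp2*, a gene of the lateral element, went from 10.68 to 9.24, which was 36.9% of the wild-type signal on the linear scale. *Syce1*, coding for a central element protein, had the highest signal of the 5 in both genotypes, at 11.20 and 10. The HORMA domain proteins of *Hormad1* and *Hormad2* coat unsynapsed axes and leave them as synapsis proceeds. *Hormad1* averaged 9.41 and 8.19, and *Hormad2* 8.19 and 6.85. Thus the lateral, transverse and central parts of the complex each had a gene with a lower average, with a median difference of -1.22, and all but *Sycp1* also lay below the median of all rows. *Sycp3*, *Sycp2l*, *Syce1l*, *Syce2*, *Syce3*, *Tex12* and *Six6os1* had no row.

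Of 4 genes with a row on the cohesin list, 3 were lower and 1 was higher. *Smc1b*, the SMC1 subunit made in meiotic cells, averaged 10.30 in wild-type against 8.86 in *Ctcf*-cKO, a difference of -1.44. *Smc1a*, the SMC1 subunit of somatic cohesin and a gene of the X chromosome, averaged 6.92 and 7.99, which was a difference of 1.07 in the opposite direction. *Stag3*, the meiotic STAG subunit, was lower at 9.35 after 10.70 in wild-type. *Sgol2* encodes the shugoshin that keeps cohesin at centromeres through the first division, and its average of 8.55 in wild-type compared with 7.08 in *Ctcf*-cKO. The list holds 17 genes, and *Rec8*, *Rad21*, *Rad21l*, *Smc3*, *Stag1* and *Stag2* were among the 13 without one.

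*Spo11*, the gene of the enzyme that makes the meiotic breaks, averaged 8.74 in wild-type against 7.41 in *Ctcf*-cKO, 39.8% of the wild-type signal. It was the single member among 9 listed genes of break formation. *Ccdc36*, an older name of *Iho1*, whose product works with HORMAD1 in break formation, had a row at 7.67 and 6.29 but no term of the rule, so it was not a member. *Prdm9*, which encodes the methyltransferase that marks the sites of breaks, and *Mei1*, *Mei4*, *Rec114*, *Top6bl*, *Ankrd31* and *Hells* had no row.

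Among 41 listed genes of resection and strand exchange, 9 had a row and 8 of these were members. All 9 were lower, where 61.3% of all coding genes listed and 87.5% of the members were lower. The largest difference on the list was that of *Meiob*, which codes for a single-stranded DNA-binding protein of spermatocytes. Its averages were 7.74 and 6.17, a difference of -1.57. *Spata22*, the gene of its binding partner, stood at 7.60 in wild-type against 6.33 in *Ctcf*-cKO, and its row also lists the olfactory receptor gene *Olfr20*. Both partners of this complex were therefore lower. *Dmc1*, the recombinase gene of meiosis, averaged 8.23 and 7.19, a difference of -1.04 and the smallest on this list. *Psmc3ip* encodes HOP2, which helps DMC1 to pair strands, and its averages were 8.66 and 7.60. *Rad51c*, whose product acts in homologous recombination, averaged 8.70 and 7.55. *Rad51ap1*, whose product binds DNA during strand exchange, had low signals, at 7.04 in wild-type against 5.93 in *Ctcf*-cKO. *Tex15*, needed for the repair of meiotic breaks, had averages of 8.90 and 7.81. *Fignl1*, encoding an ATPase with a part in homologous recombination, had averages of 8.24 and 6.99. *Hsf2bp*, whose product binds BRCA2 in spermatocytes, went from 9.06 to 7.78 and carried no term of the rule. The nuclease, replication protein A and BRCA genes of the list, *Mre11a*, *Rad50*, *Nbn*, *Exo1*, *Rpa1*, *Rpa2*, *Rpa3*, *Brca1* and *Brca2* among them, were without a row.

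Crossover genes included the member with the second largest lower difference. *Hfm1*, a DNA helicase gene required for crossover formation, averaged 8.81 in wild-type against 6.98 in *Ctcf*-cKO, which left 28.1% of the wild-type signal. *Msh4*, whose product stabilises recombination intermediates, had the lowest *Ctcf*-cKO average of all members, 5.81 after 6.98 in wild-type. *Mlh3*, encoding an endonuclease subunit and also on the list of mismatch repair, averaged 8.40 and 7.37. *Slx4*, the gene of a scaffold for structure-specific nucleases, averaged 9.66 and 8.54. Helicase, stabiliser, endonuclease and scaffold genes were all lower, but *Mlh3* and *Slx4* lay above the median of all rows. *AI481877*, an older name of *Shoc1*, and *Cntd1* also act in crossover formation and were not members: their differences were -1.44 and -1.25. In all, 6 of 20 listed crossover genes had a row, and *Msh5*, *Tex11*, *Rnf212* and *Mus81* were among the 14 without one.

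Damage signalling was represented by 1 member among 22 listed genes. *Atr*, which codes for the kinase that marks unsynapsed chromatin and responds to single-stranded DNA, averaged 10.56 in wild-type against 9.26 in *Ctcf*-cKO, a difference of -1.30. *Trp53*, the gene of the p53 tumour suppressor, was not a member by its terms and was higher, at 7.65 and 9.09. *Mdc1* and *H2afx*, whose products spread the ATR signal over chromatin, and *Atm*, *Topbp1*, *Chek1*, *Chek2* and *Trip13* had no row. Of 16 genes picked from those the study names, *Syce1* and *Atr* had a coding row and 14 had none, *Stra8* and *Ctcfl* included.

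Genes of the meiotic divisions made up the list with the most rows, 12 of 33, of which 6 were members. All 12 were lower, where 61.3% of all coding genes listed and 87.5% of the members were lower. *Ccna1*, encoding the cyclin A1 of spermatocytes, averaged 10.16 in wild-type against 8.46 in *Ctcf*-cKO, a difference of -1.70. *Aurka* had the same wild-type average of 10.16 and a *Ctcf*-cKO average of 8.94, and *Plk1* averaged 10.04 and 8.95. Both encode kinases of spindle assembly and of the entry into division. The following genes encode the machinery of anaphase. *Cdc20*, the activator of the anaphase-promoting complex, averaged 9.08 and 7.76. *Espl1*, the gene of separase, which cuts cohesin, averaged 8.88 and 7.65. *Pttg1*, the gene of securin, which holds separase inactive and which was a member through the term DNA repair, averaged 7.95 and 6.92. The genes of the protease and of its inhibitor were therefore both lower. Lower too, but not members, were *Bub1* (-1.54), *Bub1b* (-1.15) and *Ttk* (-1.58), whose products are kinases of the spindle checkpoint. *Ccnb2* (-1.04), *Cdc25c* (-1.18) and *4930404A10Rik*, an older name of *Meikin* (-1.37), completed the list, and *Ccnb1*, *Cdk1*, *Mad2l1* and *Hspa2* had no row.

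Among 13 regulators of meiotic entry and progress, *Boll* was the member. It encodes a germ cell RNA-binding protein, and its average was 10.84 in wild-type against 9.44 in *Ctcf*-cKO. The 3 others with a row were lower as well, *Gm1564* (now *Meioc*, -1.43), the transcription factor gene *Tcfl5* (-1.27) and *Mybl1* (-1.17), the gene of the A-MYB transcription factor of pachytene spermatocytes. *Dazl*, *Ddx4*, *Ythdc2* and *Mael* had no row.

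Repair pathways were counted in the same way, and their counts were not tested against each other. Of 11 genes of end joining, 4 had a row, all members, with differences from -1.1 to -1.07. *Xrcc4* and *Lig4* carried a term of nonhomologous end joining and encode its ligase complex. They averaged 7.72 and 7.79 in wild-type, and their *Ctcf*-cKO averages were 6.63 and 6.69. *Poll* and *Polq*, polymerase genes on the same list, had DNA repair as their only term of the rule. Their averages were 8.26 and 7.39 in wild-type and 7.19 and 6.32 in *Ctcf*-cKO. Of the 4, 0 lay below the median of all rows. This holds for any lower gene so near to the threshold of the table, and says nothing about end joining. The genes of the break-binding proteins of nonhomologous end joining, *Xrcc5*, *Xrcc6* and *Prkdc*, had no row.

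For the Fanconi anaemia pathway, which repairs crosslinked DNA, 4 of 26 genes had a row. *Fancd2* and *Fanci* encode the pair of proteins that is ubiquitinated at the lesion, and averaged 8.76 and 7.52 in wild-type against 7.48 and 6.38 in *Ctcf*-cKO. *Ube2t*, the gene of the enzyme that adds the ubiquitin, averaged 9.08 and 7.64. *Usp1*, the gene of the enzyme that removes it, had one of the highest average signals of the members, at 11.39 in wild-type against 10.20 in *Ctcf*-cKO. The median difference of the 4 was -1.23, and *Fancl*, the gene of the ubiquitin ligase of this mark, was among the 22 without a row.

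*Polb*, the gap-filling polymerase gene of base excision repair, averaged 10.02 and 8.81, and *Lig3*, the gene of a ligase of the same pathway, averaged 9.79 and 8.76 without being a member. They were the 2 with a row of 25 listed genes. Of 9 mismatch repair genes, *Mlh3* alone had a row, and *Msh6* and *Pms2* were among the 8 without one. Of 20 nucleotide excision repair genes, *Xpa*, *Xpc* and *Ercc1* among them, 0 had a row. Over all 13 lists, 54 of 255 distinct genes had a coding row, of which 39 were members and 15 were not.

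**Figure D2:**
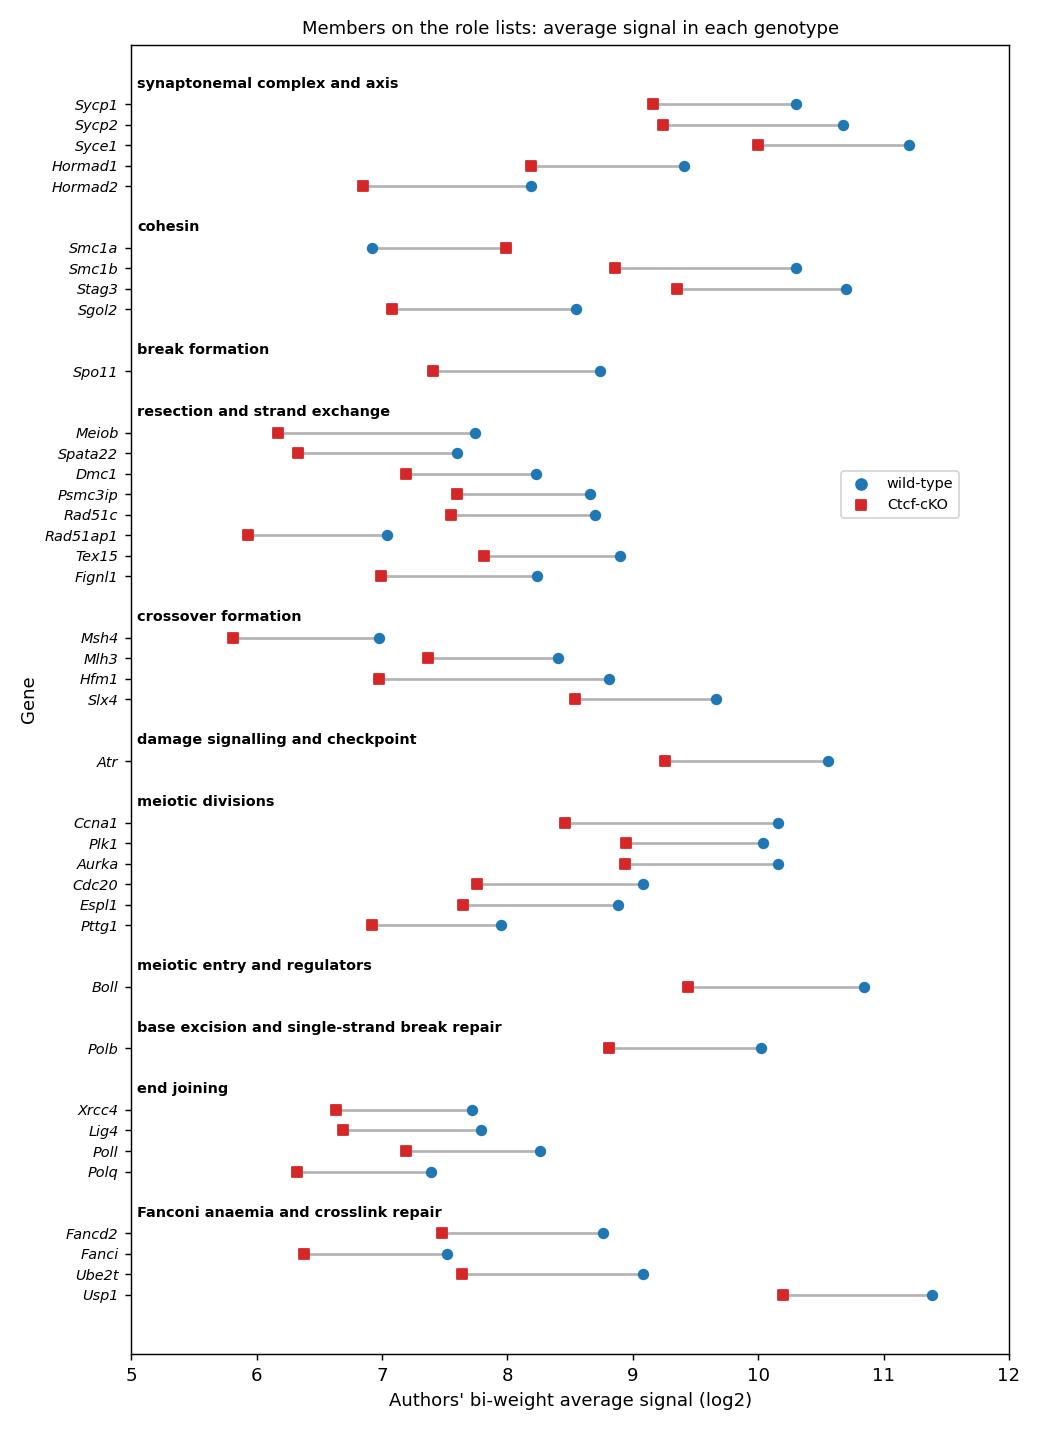
Authors' average log2 signal in wild-type (circles) and *Ctcf*-cKO (squares) for the 39 members on the role lists, 1 gene per line and grouped by role; no error can be drawn from group averages. In 38 of the 39 the square lies to the left of the circle, and *Smc1a* is the exception. The lists were written with earlier results of these data known, so this count is partly fixed by the choice of genes. It stands beside 87.5% lower of all members and 61.3% of all coding genes listed.

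The 41 members on no role list comprised 32 lower and 9 higher genes. Their median difference was -1.17, against -1.21 for the 39 on a list. With earlier results known when the lists were written, this split is partly fixed by their choice. The largest lower difference of all members was that of *Ccdc79*, now named *Terb1*, which encodes a protein that ties telomeres to the nuclear envelope in prophase. Its row, on the minus strand of chromosome 8 from 104446719 to 104509910, averaged 8.72 in wild-type against 6.86 in *Ctcf*-cKO, 27.5% of the wild-type signal. *Fbxo43*, the gene of an inhibitor of the anaphase-promoting complex also known as EMI2, followed with averages of 9.16 and 7.41. *Spdya*, encoding an activator of CDK2, averaged 8.50 and 6.99, a difference of -1.51. *Gm5136*, with averages of 8.90 and 7.22, was a member through the terms double-strand break repair and positive regulation of DNA repair. *Katnal2*, at 8.78 and 7.14, encodes a relative of the microtubule-severing enzyme katanin and carries the terms DNA repair and DNA recombination.

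Several of the members with the highest wild-type signals have known functions outside meiosis and repair. *Rsph1*, the gene of a radial spoke protein of flagella, had the highest wild-type average of the members, 11.89, and 10.72 in *Ctcf*-cKO. *Clgn*, coding for a chaperone of the endoplasmic reticulum in germ cells, averaged 11.59 and 10.51. *Dpep3*, a membrane dipeptidase gene of the testis, averaged 11.23 and 9.84. These 3 were members through the term meiotic nuclear division, and all were lower.

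Other members with a weaker tie to the group were the anion transporter gene *Slc26a8* (-1.40), the retinol dehydrogenase gene *Rdh11* (-1.35) and *Tex40* (-1.39), the gene of a subunit of the sperm calcium channel CATSPER. *Spast*, the gene of spastin, which severs microtubules, had a difference of -1.05. *Mki67*, the gene of the proliferation marker Ki-67, averaged 9.06 in wild-type against 7.96 in *Ctcf*-cKO.

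A further set of lower members, put together after their values had been seen, carried the term piRNA metabolic process. It comprised 7 of the 8 coding genes listed with this term. *Piwil1*, the gene of a PIWI protein that binds small RNAs in pachytene spermatocytes and round spermatids, averaged 10.80 in wild-type against 9.49 in *Ctcf*-cKO. The tudor domain genes *Tdrd12*, *Tdrd1*, *Tdrd9* and *Tdrkh* had differences of -1.46, -1.26, -1.16 and -1.08. *Pld6*, the gene of a mitochondrial nuclease of the same pathway, averaged 9.15 and 7.93, and *Asz1* 7.79 and 6.64. The median difference of the 7 was -1.22, near that of all members.

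Further lower members on no role list are given here without a common theme. *Smc2* and *Smc4*, which encode the core pair of condensin, averaged 8.47 and 10.94 in wild-type and 7.22 and 9.90 in *Ctcf*-cKO. *Eid3*, the gene of a testis subunit of the SMC5/6 complex, averaged 11.09 and 9.71. *Cdca5*, coding for sororin, which stabilises cohesin, averaged 8.57 and 7.38. *Brdt*, a bromodomain gene of spermatocytes and spermatids, averaged 9.74 and 8.54. *Nek2*, a centrosomal kinase gene, averaged 10.11 and 8.82, and *Tex14*, which is required for the intercellular bridges of germ cells, 9.19 and 8.13. The last lower members, *Eya4*, *Parpbp*, *M1ap* and *Chd1l*, had differences of -1.20, -1.21, -1.16 and -1.02.

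The largest difference among the 10 higher members was that of *Rps6ka2*, which encodes a ribosomal S6 kinase and carried the term negative regulation of meiosis, with averages of 8.22 in wild-type against 10 in *Ctcf*-cKO. *Ppp1ca*, the gene of a catalytic subunit of protein phosphatase 1, averaged 8.72 and 10.41, which was higher by a linear fold of 3.23. *Nono*, an X-linked gene of a nuclear protein that binds RNA and DNA, averaged 7.73 and 9.34. These were the 3 members that were higher by a linear fold of over 3. *Cyp26b1*, whose enzyme degrades retinoic acid in the somatic cells of the testis, had averages of 7.96 and 9.27. *Ints3*, encoding a subunit of the Integrator and of a complex that binds single-stranded DNA, averaged 8.04 and 9.29. *Spin1*, the gene of a reader of histone methylation, had the highest wild-type average of the 10, 8.88, and reached 10.08. *Ubr2*, a ubiquitin ligase gene needed in male meiosis, averaged 7.85 and 9.01. *Slc50a1*, a sugar transporter gene listed under DNA recombination, and *Lonp1*, the gene of a mitochondrial protease, averaged 7.48 and 7.60 in wild-type and 8.62 and 8.70 in *Ctcf*-cKO. A wild-type average of at least 10 was reached by 0 of the 10 higher and 23 of the 70 lower members, and by 44 of the 1547 higher and 785 of the 2450 lower coding genes listed.

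**Figure D3:**
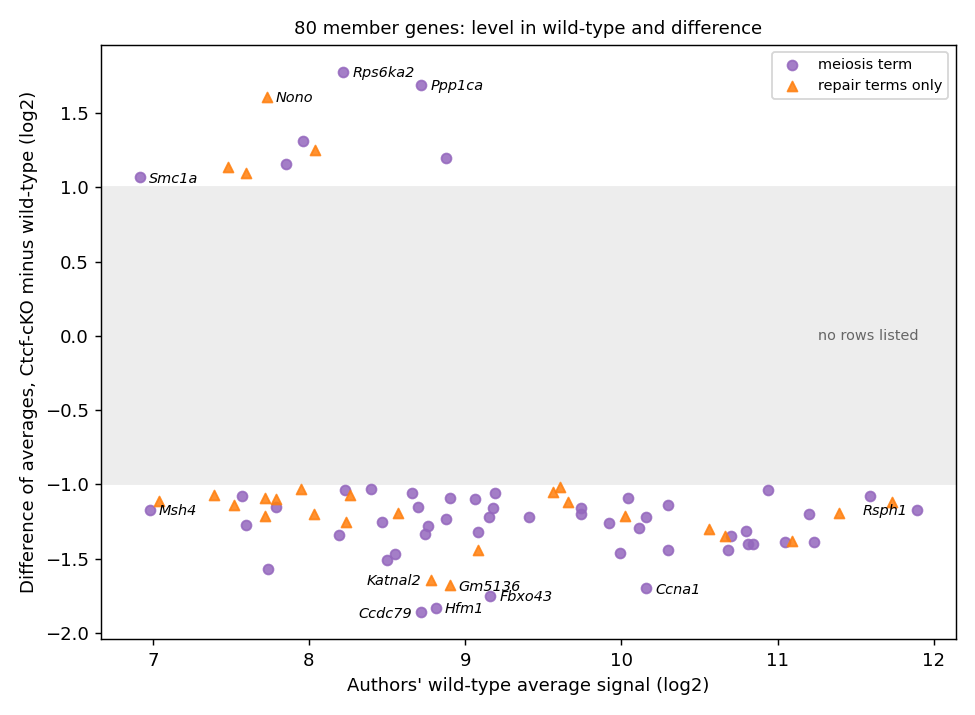
Difference of the authors' averages, *Ctcf*-cKO minus wild-type on the log2 scale (vertical axis), against the wild-type average log2 signal (horizontal axis) for the 80 members, with members that have a meiosis term as circles and members with repair terms only as triangles. The grey band from -1 to 1 holds no rows of the table; 70 members lie below it and 10 above.

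Large differences were a minority among the members, as among all coding genes listed. A linear fold of over 3 was reached by 6 lower members (7.5%), where the share of all coding genes listed was 8.01%. On the higher side it was reached by 3 members (3.75%), where the share was 10.3%. Taken by direction, these were 6 of the 70 lower members and 320 of the 2450 lower coding genes listed. For higher genes they were 3 of the 10 members and 412 of the 1547 coding genes listed. The 6 lower members were *Ccdc79*, *Hfm1*, *Fbxo43*, *Ccna1*, *Gm5136* and *Katnal2*. Nearest to the threshold of the table were *Chd1l* at -1.02 and *Mlh3* and *Pttg1* at -1.03 on the lower side, and *Smc1a* at 1.07, *Lonp1* at 1.1 and *Slc50a1* at 1.14 on the higher side. Of the lower members, 15 had a difference between -1.1 and -1, and values between -1 and 1 were not in the table.

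The members were also counted by the terms that brought them into the group, where 61.3% of all coding genes listed were lower. Of 53 members with a term containing meio, synapsis or synaptonemal, 47 were lower (88.7%), with a median difference of -1.22. Of the 27 members with repair terms only, 23 were lower (85.2%), with a median of -1.12. The 13 members with both kinds of term had 12 lower genes, and *Smc1a* was the higher one. All 8 members with the term synapsis were lower, as were all 13 with a term containing double-strand break. Of 17 members with a term containing DNA recombination 13 were lower (76.5%), and the 4 higher were *Smc1a*, *Lonp1*, *Slc50a1* and *Nono*. Below the median of all rows lay 67.9% of the members with a meiosis term, 44.4% of those with repair terms only and 35.3% of those with a term containing DNA recombination, beside 46.9% of all coding genes listed.

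Other groups of the table were counted in the same way. Of 163 further coding genes with a term containing spermatogenesis or spermatid, 142 were lower (87.1%), with a median difference of -1.26 and a median wild-type average of 9.78, which was 8.89 for the members. Below the median of all rows lay 71.8% of these genes and 60.0% of the members, and past a linear fold of 3 on the lower side were 13.5% of them and 7.5% of the members. Of 46 further coding genes with a term containing chromatin or histone, 18 were lower (39.1%), with a median of 1.08. Over all 3917 coding genes outside the group, 60.8% were lower and the median was -1.11. These counts were not tested against each other.

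Terms that the rule had not used placed many members on chromosomes. The cellular component chromosome was given to 24 members (30%), of which 23 were lower, and to 1.90% of all coding genes listed. Over all coding genes listed 61.3% were lower, and the direction of the other genes with each term was not counted. The component synaptonemal complex was given to 8 members, all lower, among 11 coding genes listed with it, and included *Polb*, *Msh4* and *Mlh3* beside the structural genes. The lateral element was named for *Smc1b*, *Stag3*, *Sycp1* and *Sycp2*, the 4 coding genes listed with this term. ATP binding was given to 27 members (33.8%), where it was 6.91% of all coding genes listed. The term spermatogenesis was carried by 22 members, of which 20 were lower.

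By position, 8 of the 156 coding genes listed on chromosome 17 were members (5.13%), 5 of 111 on chromosome 19 (4.5%), 9 of 213 on chromosome 3 (4.23%) and 0 of 286 on chromosome 14, where the share over all coding genes listed was 2% (80 of 3997). Both X-linked members, *Smc1a* and *Nono*, were higher, so that all 70 lower members were autosomal. Of all coding genes listed on the X chromosome, 187 were lower and 178 higher. *Smc1a* lay on the plus strand from 152016428 to 152062694, and *Nono* on the plus strand from 101429318 to 101448593. Chromosome Y had 307 coding genes listed and 0 members. The positions are those of the mm10 build, and the row of each of the 80 members overlapped its RefSeq gene.

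Few members were neighbours, and each of the pairs within 1000000 bases of each other consisted of lower genes on opposite strands. Of all members 87.5% were lower, and of all coding genes listed 61.3%. *Rad51c* and *Tex14* on chromosome 11 lay closest, with 111 bases between their rows and differences of -1.15 and -1.06. The other pairs were *Hfm1* and *Brdt*, *Aurka* and *Spo11*, and *Cdca5* and *Tex40*. Non-coding rows overlapped 6 of the members, and all 7 such rows had the direction of the member they overlapped. The share of such agreement over all coding genes listed was not counted, so this is no trait of the members. One of the 7 rows, on the opposite strand to *Tex14*, averaged 8.24 in wild-type against 6.99 in *Ctcf*-cKO. Another on the strand of *Parpbp* averaged 8.70 and 6.96. Both rows inside *Rps6ka2* were on its strand and higher, by 1.65 and 1.83, and whether they measure the same transcript was not tested.

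Promoter sequences were read from the RefSeq table for GRCm38.p6, which covers 250 bases before to 50 bases after a gene's start and held 79 windows for 65 of the 80 members. Short motifs of factors that act in meiosis, in division or as the deleted protein were sought on both strands. The letters TCCCGC, bound by the E2F family, were in 44.3% of the member windows and in 20% of all 32851 windows of the table. The letters CNAGNNGGC, the core of the CTCF motif, were in 41.8% and 20.8%. AACNGNC, the letters of the MYB family to which *Mybl1* belongs, was in 50.6% and 32.8%. CNCCTCAG, described for STRA8 and MEIOSIN, was in 10.1% and 7.94%, and in 9.14% of the windows of coding genes listed. Its 8 member genes were lower. For the MYB family 31 member genes were lower and 4 higher, for the E2F family 28 and 4, and for CTCF 25 and 4. Of the 65 member genes with a window, 56 were lower and 9 higher. These splits were not tested. TGACGTCA, the site of CREM and CREB, was in 1 of the windows of *Rad51c* alone among the members, a share of 1.27% beside 1.79% of all windows and 2.2% of those of coding genes listed. Windows of the coding genes listed lay between for the E2F family (23.5%), CTCF (23.8%) and the MYB family (36.5%). Such matches are descriptions of letters and not of binding, and differences in base composition between the windows were not taken into account. Of the matches in member windows, 4 of the CTCF letters overlapped letters of the MYB family and 1 overlapped letters of the E2F family.

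The windows below belong to lower members of the axis, cohesin, strand exchange and crossover lists that held at least 3 of the 5 motifs, each read 5′ to 3′ on the strand of its gene with every motif match in capitals. *Hfm1* (chr5:106925841-106926140, minus strand) had 2 matches of the STRA8 and MEIOSIN letters and 1 each for the MYB family, the E2F family and CTCF. *Hormad1* (chr3:95559427-95559726, plus strand), *Psmc3ip* (chr11:101095386-101095685, minus strand) and *Sgol2* (chr1:57985090-57985389, plus strand) each matched the MYB family, the E2F family and CTCF, and *Hormad1* and *Sgol2* each had a further window with the same motifs that is not printed. *Sycp1* (chr3:102936051-102936350, minus strand) matched STRA8 and MEIOSIN, the E2F family and CTCF. *Rad51ap1* (chr6:126939538-126939837, minus strand) matched STRA8 and MEIOSIN, the MYB family and the E2F family.
Hfm1: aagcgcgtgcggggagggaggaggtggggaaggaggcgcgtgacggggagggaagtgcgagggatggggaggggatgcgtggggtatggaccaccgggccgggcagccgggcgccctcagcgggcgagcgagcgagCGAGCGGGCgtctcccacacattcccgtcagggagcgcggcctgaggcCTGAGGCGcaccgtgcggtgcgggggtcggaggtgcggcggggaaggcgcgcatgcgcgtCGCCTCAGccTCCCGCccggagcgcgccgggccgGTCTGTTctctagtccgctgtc
Hormad1: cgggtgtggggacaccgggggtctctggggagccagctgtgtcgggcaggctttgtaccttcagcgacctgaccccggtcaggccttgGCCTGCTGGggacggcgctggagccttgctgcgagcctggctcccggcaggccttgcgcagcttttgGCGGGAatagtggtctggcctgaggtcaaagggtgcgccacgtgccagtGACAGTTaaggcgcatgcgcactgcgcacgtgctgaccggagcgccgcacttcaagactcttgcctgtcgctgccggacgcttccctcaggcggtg
Psmc3ip: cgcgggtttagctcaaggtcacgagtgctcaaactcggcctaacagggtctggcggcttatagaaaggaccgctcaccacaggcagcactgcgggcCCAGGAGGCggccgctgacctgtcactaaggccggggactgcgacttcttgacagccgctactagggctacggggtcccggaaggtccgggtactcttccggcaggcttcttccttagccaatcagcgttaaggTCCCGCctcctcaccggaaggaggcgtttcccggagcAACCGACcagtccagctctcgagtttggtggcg
Sgol2: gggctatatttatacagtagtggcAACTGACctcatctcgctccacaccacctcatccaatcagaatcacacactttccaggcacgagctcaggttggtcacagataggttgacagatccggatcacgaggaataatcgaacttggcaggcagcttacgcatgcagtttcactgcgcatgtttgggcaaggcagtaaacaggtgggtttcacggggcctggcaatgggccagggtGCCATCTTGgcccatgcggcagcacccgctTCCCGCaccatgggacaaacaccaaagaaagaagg
Sycp1: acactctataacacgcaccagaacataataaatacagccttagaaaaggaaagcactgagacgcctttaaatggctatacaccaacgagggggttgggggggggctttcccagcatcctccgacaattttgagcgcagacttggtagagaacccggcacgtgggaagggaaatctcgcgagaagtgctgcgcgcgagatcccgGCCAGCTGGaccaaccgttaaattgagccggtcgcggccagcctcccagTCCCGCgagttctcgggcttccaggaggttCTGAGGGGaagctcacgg
Rad51ap1: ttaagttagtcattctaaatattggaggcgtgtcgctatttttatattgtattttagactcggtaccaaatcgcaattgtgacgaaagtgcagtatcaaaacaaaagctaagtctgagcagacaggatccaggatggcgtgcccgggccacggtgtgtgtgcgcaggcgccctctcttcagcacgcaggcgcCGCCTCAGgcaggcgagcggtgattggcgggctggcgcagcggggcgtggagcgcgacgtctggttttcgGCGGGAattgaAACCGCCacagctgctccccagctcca

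To these were added, after their values had been seen, the windows of the neighbours *Rad51c* and *Tex14*, which are read away from each other and were both lower, and that of the higher cohesin gene *Smc1a*. *Rad51c* had 2 windows. The one printed (chr11:87404457-87404756, minus strand) lies inside the row and matched CREM and CREB and the E2F family. The other (chr11:87404905-87405204, minus strand), whose start is the 5′ end of the row, matched the MYB and E2F families and not CREM and CREB. The *Tex14* window (chr11:87404815-87405114, plus strand) had 3 matches of the MYB family, with 1 of CTCF overlapping 2 of them, and 1 of the E2F family. The *Smc1a* window (chrX:152016178-152016477, plus strand) had 2 matches of CTCF and 1 of the E2F family, so these letters were present in windows of members that differed in either direction.
Rad51c: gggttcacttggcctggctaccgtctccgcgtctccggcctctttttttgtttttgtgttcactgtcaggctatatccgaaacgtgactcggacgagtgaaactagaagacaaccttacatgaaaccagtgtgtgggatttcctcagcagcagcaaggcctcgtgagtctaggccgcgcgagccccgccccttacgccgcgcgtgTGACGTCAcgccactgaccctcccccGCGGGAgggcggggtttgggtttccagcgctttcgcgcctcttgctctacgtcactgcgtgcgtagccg
Tex14: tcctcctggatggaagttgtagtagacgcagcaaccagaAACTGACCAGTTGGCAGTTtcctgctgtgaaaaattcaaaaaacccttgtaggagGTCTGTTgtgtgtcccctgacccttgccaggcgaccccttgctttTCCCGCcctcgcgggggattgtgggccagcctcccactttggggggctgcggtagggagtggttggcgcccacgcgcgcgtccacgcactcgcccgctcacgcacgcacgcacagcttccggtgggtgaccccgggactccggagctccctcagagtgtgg
Smc1a: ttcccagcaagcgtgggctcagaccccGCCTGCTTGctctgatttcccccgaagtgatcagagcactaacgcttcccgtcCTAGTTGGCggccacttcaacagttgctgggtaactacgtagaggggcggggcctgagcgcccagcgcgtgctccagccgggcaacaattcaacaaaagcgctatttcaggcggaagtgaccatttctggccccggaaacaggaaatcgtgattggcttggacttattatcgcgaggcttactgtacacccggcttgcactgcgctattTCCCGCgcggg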

How the data were processed

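According to the submitters' processing notes, the authors used Affymetrix Expression Console 1.4.1 with RMA and Transcriptome Analysis Console 3.0 on the mm10 build. The deposited table holds the authors' bi-weight average log2 signal of each genotype in 7580 rows, and has 0 columns of single arrays. Its other columns give the authors' fold change, p of an analysis of variance and adjusted p, which were not used. Numbers were read with decimal commas. The 4102 rows whose class was Coding or Complex made up the coding set, and the difference of averages was computed per gene, as the mean over its rows. No test was run. The members and lists were chosen with earlier results of these data known. Named were members on a role list, the 12 largest differences in each direction, the 5 highest wild-type averages, the 3 nearest the threshold in each direction and 16 genes picked from those the study names. Other members, and role list genes that are not members, were named after their values had been seen. Some genes are withheld and not reported. Listed genes were matched by symbol or by RefSeq gene ID. The functions were tested on simulated data, where 7 of 7 checks passed. There were 12 alternatives, on row classes, symbols, levels, fold, centring and terms. Scripts ran under matplotlib 3.10.9, scipy 1.17.1, pandas 2.3.3, numpy 2.4.6 and python 3.11.15.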

Additional observations from a re-analysis of the deposited data

How the results depend on the processing

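No paired analysis was possible because the table read here gives an average per genotype without a value per mouse, and leaving out each mouse could not be run for the same reason. Of 48 values under the 12 alternatives, 37 stayed close to the main value and 0 changed direction. Part of this was fixed in advance. Each member had 1 row and all 80 reached a log2 average of 6. Alternatives on the rows of a gene and on that level therefore could not move a value. Without values between -1 and 1, only the subtraction of a median could change the side of a member. The counts of close values are thus no measure of robustness. For counts, close means within a factor of 1.5, and for percents it means from 78.2% to 93.8%. The medians taken as close also lay within a factor of 1.5. With the class Coding alone, 27 members were lower and 5 higher. With a linear fold of 3 these counts were 6 and 3, and 66.7% of the members were lower. Subtraction of the median of all rows left 48 lower and 32 higher members, 60.0% lower and a median difference of -0.05. With meiosis terms alone 6 members were higher, and with repair terms alone 35 were lower and 5 higher. The narrower classes, folds and terms hold fewer genes by construction, and the subtraction moves every difference up by the same amount, so that lower members nearest the threshold change side. Values that stayed close ranged from 47 to 72 lower members, from 84.4% to 88.7% lower and from -1.68 to -1.14 for the median. With a log2 average of at least 8 in either genotype, 58 members were lower and 9 higher (86.6% lower), and all 80 members reached 6. With 7 arrays the precision of all values is limited, and signal over background could not be assessed from the averages.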
